A study of Mus musculus with 5 samples.

Results

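The 10 genes described here carry glucose into the cell and take it through the core of glycolysis to lactate. They were taken as a fixed list of symbols: the glucose transporter gene Slc2a1, the enzyme genes Hk2, Gpi1, Pfkp, Aldoa, Pgk1, Eno1, Eno3 and Pkm, and the lactate dehydrogenase gene Ldha. All 10 were among the 27729 genes in the deposited expression values, and all 10 reached the minimum of 10 expected counts in any library that was set for a measured gene. RNA was collected from mouse embryonic fibroblasts (MEFs) of the ICR strain, made from embryos without head and organs, just before the medium was changed (day 0) and on days 2, 5, 10 and 14 afterwards. At day 0 the MEFs were in DMEM with 10% serum, and at the 4 later time points they were in serum-free 5C medium, which holds N2 supplement, bFGF, LIF, vitamin C and 2-mercaptoethanol and is used to turn MEFs into neuron-like cells. The labels call this medium 6C, give a seeding density of 5000 cells per well where the study's methods name a higher one, and mention day 15 in the text beside the library labelled day 14. There was 1 library per day, so time in the medium, loss of serum and differences between cultures cannot be told apart, and no test between days was possible.

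The libraries held between 2253748 (day 2) and 3890334 (day 0) expected counts, RSEM's estimates of the reads that came from each gene. Where 5 values of a gene are listed in day order, they belong to days 0, 2, 5, 10 and 14. The day 2 library stood apart in that Gm42418, a locus within ribosomal RNA repeats, took 4.79% of its counts against at most 0.109% elsewhere. All 11 fibroblast markers had 10 or more counts in every library, with 14109 counts of the collagen gene Col1a1 on day 0. Markers of other cell types moved over the same days. On day 14, 9 of 9 measured Schwann cell markers, 5 of 6 astrocyte markers, 5 of 6 adipocyte markers, 5 of 8 macrophage markers and 4 of 7 neuron markers lay over 2-fold above day 0 in counts scaled between libraries with edgeR's TMM factors (normalized counts), against 24.5% of all measured genes. Below day 0 by over 2-fold lay 5 of 7 measured skeletal muscle markers, 2 of the 7 neuron markers (Map2 and Stmn2) and 1 of the 8 macrophage markers, against 19.9% of all measured genes. In the authors' TPM values, explained below, 9 of 9 Schwann cell, 4 of 6 astrocyte, 6 of 6 adipocyte, 5 of 8 macrophage and 3 of 7 neuron markers lay over 2-fold above day 0. The share of all measured genes there was 41.6%. The summed normalized counts of the 10 listed neuron markers went from 696 on day 0 to 434 on day 14. Of the 11 fibroblast markers, 3 (Dcn, Col3a1 and Pdgfra) were above day 0 by over 2-fold on day 14. Another 3, Twist2 among them, were below. The summed normalized counts of the 11 went from 39695 on day 0 to 70373 on day 14. Whole cultures were sequenced, so fewer cells of a type and less RNA of a gene per cell cannot be told apart in any value given here, and the part of these other cell types in the changes was not tested.

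Glycolysis splits 1 glucose molecule into pyruvate and gains ATP without oxygen. Slc2a1 encodes GLUT1, the main glucose carrier of most growing cells. The enzymes then trap glucose as a phosphate (hexokinase), rearrange and phosphorylate it again (glucose-6-phosphate isomerase and phosphofructokinase), cut it (aldolase) and harvest ATP from the pieces (phosphoglycerate kinase and pyruvate kinase, with enolase between them). Lactate dehydrogenase A turns pyruvate into lactate and returns the NAD+ that the pathway uses. Cultured fibroblasts with serum are known for a high rate of this pathway, whereas neurons and glia use different isozymes at several steps.

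The messages of these 10 genes fell as a group when MEFs were moved to 5C medium, and they were still low at the end. Together the 10 genes took 1.25% (95% interval 1.24 to 1.26), 0.658% (0.648 to 0.669), 0.458% (0.451 to 0.465), 0.248% (0.243 to 0.253) and 0.246% (0.240 to 0.251) of all expected counts in day order. The share was therefore 5.07-fold lower on day 14 than on day 0, and days 10 and 14 did not differ beyond counting error. These intervals, like all others here, are exact Clopper-Pearson intervals that cover counting error only, since reads carried no molecular identifiers.

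For each gene, the change against day 0 was the log2 ratio of the TMM-normalized count plus 1, and a gene was said to have risen or fallen when this ratio passed 2-fold. On day 2, 5 of the 10 genes had fallen, against 13.1% of the 13346 genes with 10 or more counts in any library, and 0 had risen, against 15.2%. On day 5, 8 had fallen (13.6% of all genes) and 0 had risen (20.2%). On day 10 all 10 had fallen, against 22.3% of all genes, and 0 had risen, against 28.7%. On day 14 the same was true, with all 10 fallen (19.9% of all genes) and 0 risen (24.5%). The list was chosen with earlier results of these data known, so these counts describe it and are not a test. Glycolysis genes outside the list went both ways, as given below. The median change of the 10 genes was −1.03, −1.56, −2.48 and −2.73 at the 4 later time points, whereas the median over all genes was −0.03, 0.05, 0.14 and 0.07.

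The authors' TPM values, which divide by gene length and sum to 1000000 in each library, gave a larger median fall of the 10 genes on day 2 (−1.53) and smaller ones on days 5 (−1.16), 10 (−1.47) and 14 (−1.94). The middle of all genes lay elsewhere on that scale. With TPM the median of all genes was −0.20, 0.61, 1.09 and 0.78 at those time points, and 88.6% of the genes past 2-fold on day 10 were above day 0, against 56.3% with normalized counts (85.6% against 55.2% on day 14). On the TPM scale 8 of the 10 genes had fallen over 2-fold on day 2 (14% of all genes), 5 on day 5 (3.98%), 8 on day 10 (6.77%) and 7 on day 14 (6.97%), while 0 had risen at any of these time points, against 7.9%, 32%, 52.9% and 41.6% of all genes. Relative to the median of all genes, the 10 genes lay at −2.62 on day 10 and −2.80 on day 14 with normalized counts, and at −2.56 and −2.72 with TPM. Of the 40 changes of single genes over the 4 days, 2 changed sign between the scales, namely Gpi1 on day 2 and Slc2a1 on day 5, and neither passed 2-fold on either scale.

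**Figure D1:**
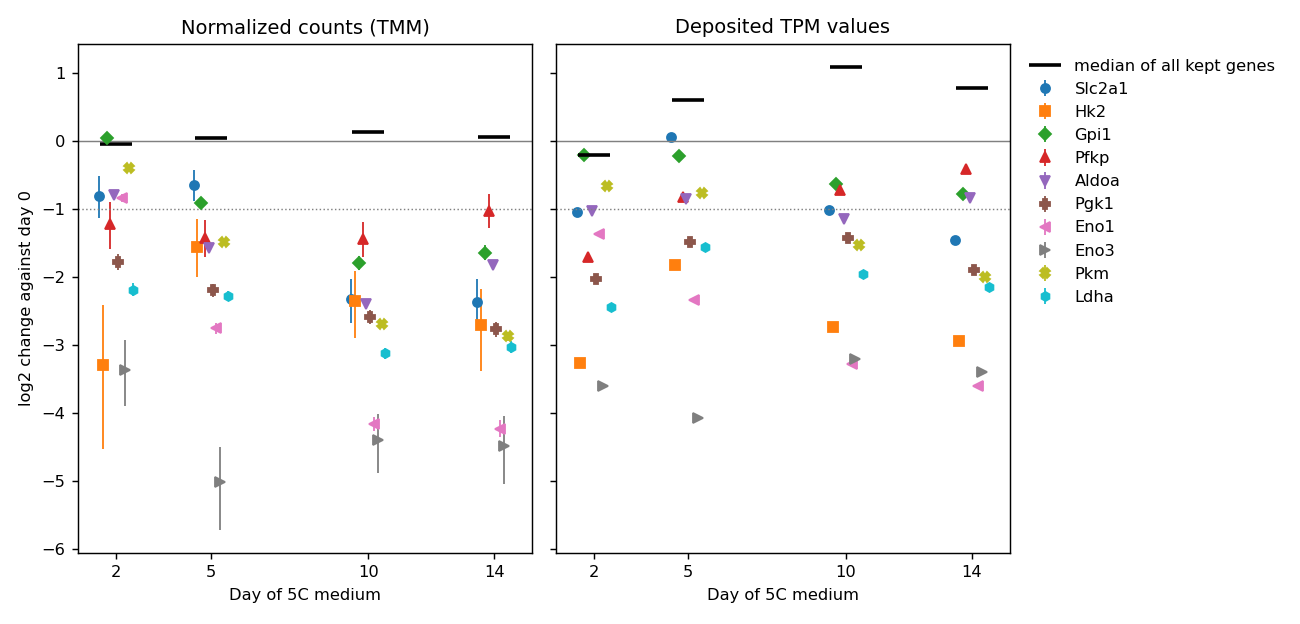
Change of each of the 10 genes against day 0 (log2, vertical axis) on days 2, 5, 10 and 14 of 5C medium (horizontal axis, points spread sideways for clarity), with TMM-normalized counts on the left and the deposited TPM values on the right. Coloured points are genes, bars on the left are 95% counting intervals, black dashes are the median of all 13346 measured genes and the dotted line marks 2-fold below day 0. On days 10 and 14 all 10 genes lie below the dotted line on the left, and on both sides they lie below the median of all genes.

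The message of the glucose carrier was low on days 10 and 14. Slc2a1 (ENSMUSG00000028645, chromosome 4, 119108711 to 119137983, plus strand of GRCm38) had 372, 116, 269, 102 and 79 expected counts in day order. Its level was 49.8, 23.6, 52.1, 24.2 and 17.5 TPM. Thus on the TPM scale the day 5 library was as high as day 0, and the other later libraries were low. In normalized counts Slc2a1 stayed within 2-fold of day 0 on days 2 and 5, with changes of −0.81 (−1.12 to −0.51) and −0.64 (−0.88 to −0.42). It fell between day 5 and day 10, by 1.68 on the log2 scale (−2.04 to −1.36), and was 5.15-fold below day 0 on day 14 (−2.37, −2.75 to −2.03).

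The first enzyme, hexokinase 2, is the regulated form of growing and insulin-responsive cells. Hk2 (ENSMUSG00000000628, chromosome 6, 82725025 to 82774454, minus strand) had 170, 9, 65, 45 and 28 expected counts in day order. The day 2 library was the lowest and day 5 the highest of the later ones. Hk2 fell by 3.29 on the log2 scale by day 2 (−4.52 to −2.41), rose from day 2 to day 5 by 1.74 (0.79 to 3.0), and was 6.51-fold below day 0 on day 14 (−2.70, −3.38 to −2.17). With so few reads its intervals are wide. The gene length that RSEM used for Hk2 was 1011, 920, 2012, 3094 and 2321 bases in day order, so its TPM values rest on different mixtures of transcripts.

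Glucose-6-phosphate isomerase, the second enzyme, was slow to change. Gpi1 (ENSMUSG00000036427, chromosome 7, 34201330 to 34230336, minus strand) had 2710, 1539, 1641, 1089 and 965 expected counts in day order. Its normalized count on day 2 was level with day 0 (0.05, −0.04 to 0.14), and it was the only one of the 10 genes not below day 0 at that time. It was at −0.90 (−0.99 to −0.81) on day 5 and had fallen by 1.78 on the log2 scale on day 10 (−1.89 to −1.68). On the TPM scale Gpi1 went from 464 to 271 TPM, a change of 1.71-fold that did not pass 2-fold on any day.

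Phosphofructokinase, the main control point of the pathway, is made from 3 genes, and Pfkp encodes the platelet type. Pfkp (ENSMUSG00000021196, chromosome 13, 6579768 to 6648777, minus strand) had 373, 87.3, 157, 190 and 204 expected counts in day order. In normalized counts it was 2.33-fold below day 0 on day 2 (−1.22, −1.58 to −0.89), 2.71-fold below on day 10 and 2.02-fold below on day 14 (−1.02, −1.27 to −0.77). The interval of the last value spans the 2-fold line, and Pfkp had the smallest change of the 10 genes on day 14. On the TPM scale Pfkp was 3.24-fold below day 0 on day 2, but only 1.65-fold below on day 10 and 1.33-fold below on day 14.

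Aldolase A, the form of muscle and of most growing cells, and phosphoglycerate kinase 1, the first ATP-making enzyme, are both expressed at high levels. Aldoa (ENSMUSG00000030695, chromosome 7, 126795234 to 126800751, minus strand) had 7462, 2369, 2848, 1972 and 2347 expected counts in day order. Its normalized count was 5.24-fold below day 0 on day 10 (−2.39, −2.46 to −2.32) and 3.52-fold below on day 14 (−1.82, −1.88 to −1.75), so that Aldoa was higher on day 14 than on day 10 by 0.57 (0.49 to 0.66). On the TPM scale Aldoa was 2.21-fold below day 0 on day 10 and 1.79-fold below on day 14, the latter not past 2-fold. Pgk1 (ENSMUSG00000062070, chromosome X, 106187100 to 106203699, plus strand) had 4561, 731, 1132, 1057 and 743 expected counts in day order. Most of its fall came early, with −1.77 (−1.89 to −1.66) on day 2 and −2.76 (−2.88 to −2.65) on day 14.

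Enolase makes phosphoenolpyruvate, and both of its genes in the list fell further than any other of the 10 on days 10 and 14. Eno1 (ENSMUSG00000063524, chromosome 4, 150236721 to 150248879, plus strand) encodes the widespread form. It had 9543, 2934, 1605, 743 and 565 expected counts in day order, which is a lower value at each later day. Its normalized count was 17.8-fold below day 0 on day 10 (−4.15, −4.26 to −4.05) and 18.7-fold below on day 14 (−4.22, −4.35 to −4.10). Eno1b is a retrogene whose near-identical sequence shares reads with Eno1, and RSEM gave it 8315, 1142, 1565, 697 and 517 expected counts. Eno1 held 53.4% of the pair's counts on day 0, 72.0% on day 2 and 50.6% to 52.2% from day 5 on, so the division between the copies was uncertain. The sum of the pair stood at −1.26 (−1.31 to −1.21) on day 2, where Eno1 alone was at −0.83 and not past 2-fold, and at −4.10 and −4.19 on days 10 and 14.

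Eno3 (ENSMUSG00000060600, chromosome 11, 70657202 to 70662513, plus strand) encodes the enolase of muscle. It had 744, 39, 25, 48 and 36 expected counts in day order. Day 0 alone was high, and the later libraries lay between 20.9-fold and 32.2-fold below it on days 5, 10 and 14. On day 2 it was already 10.3-fold below (−3.37, −3.89 to −2.92). Muscle genes moved over the same days: the 16 skeletal muscle markers summed to 1252 normalized counts at the start and 70.7 at the lowest, on day 14, with Acta1 (skeletal alpha-actin) going from 585 to 3.15 expected counts by day 10 and Des (desmin) from 588 to 75. Acta1 and Des made up 1161 of the 1252, and the other 14 markers summed to 91.0, 93.4, 44.8, 41.6 and 27.7 normalized counts in day order. Chrna1, a subunit of the acetylcholine receptor, went the other way on days 2 and 5 (3.90 and 3.02 above day 0 on the log2 scale, with 21.4 and 23.4 expected counts against 1.67), and Myh8, a myosin of newborn muscle, on days 10 and 14 (3.06 and 2.20, with 27.5 and 11.6 counts against 1.5). The defining regulators were at or near 0 throughout, with at most 1 count of Myod1, 0 of Myf5 and at most 6 of Myog, and Ckm (muscle creatine kinase) had at most 1. The part of these cells in the Eno3 result was not tested. Eno3 lies 2557 bases from Pfn1 and 1257 from Spag7, both on the other strand, and overlaps neither.

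Pyruvate kinase M, made from Pkm (ENSMUSG00000032294, chromosome 9, 59656368 to 59679375, plus strand), was the gene with the most reads of the 10 in every library except that Aldoa passed it on day 14. It had 14400.1, 6032, 5865, 3098 and 2185 expected counts in day order. It was close to day 0 on day 2 (−0.39, −0.43 to −0.34) and had fallen by 2.69 on the log2 scale on day 10 (−2.74 to −2.63) and by 2.87 on day 14 (−2.93 to −2.80). The M1 and M2 splice forms of this gene could not be separated in values given per gene.

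Ldha (ENSMUSG00000063229, chromosome 7, 46841475 to 46855627, plus strand) had 8175, 985, 1919, 1303 and 1111 expected counts in day order. Unlike Pkm, it was low at once. Its normalized count was 4.54-fold below day 0 on day 2 (−2.18, −2.28 to −2.09) and 8.14-fold below on day 14 (−3.02, −3.12 to −2.94). On the TPM scale its level was lowest on day 2, at 5.42-fold below day 0, and was 4.41-fold below on day 14. The 2 last enzymes thus went apart for a time within each library: the ratio of Pkm to Ldha in TPM was 1.14 (1.11 to 1.18), 3.97 (3.71 to 4.25), 1.99 (1.89 to 2.09), 1.54 (1.44 to 1.64) and 1.27 (1.18 to 1.37).

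**Figure D2:**
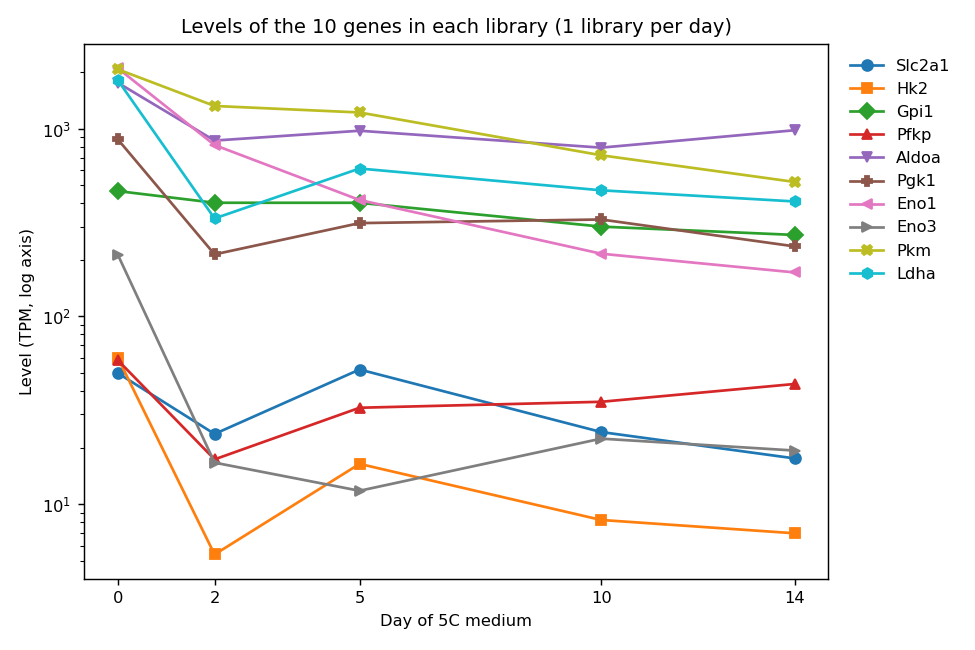
Level of each of the 10 genes (TPM per library, vertical log axis) by day of 5C medium (horizontal axis), with 1 library per day and lines that join the same gene. Eno1, Pkm, Ldha and Aldoa lie between 1751 and 2093 TPM on day 0, and by day 14 they have spread to between 171 and 979 TPM.

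The order of the levels changed with time. On day 0 the levels per length were 2093 TPM for Eno1, 2066 for Pkm, 1805 for Ldha, 1751 for Aldoa, 874 for Pgk1, 464 for Gpi1 and 212 for Eno3, with Hk2 (60.0), Pfkp (58.3) and Slc2a1 (49.8) far below. The gaps between Eno1 and Pkm and between Ldha and Aldoa were small, and with 1 library per day such neighbours cannot be separated. On day 14 Aldoa was highest at 979 TPM, followed by Pkm at 519, Ldha at 409, Gpi1 at 271, Pgk1 at 236, Eno1 at 171, Pfkp at 43.6, Eno3 at 19.3, Slc2a1 at 17.5 and Hk2 at 6.99. Eno1 alone had thus gone from the first place to the sixth. With Eno1b added, the pair stood at 342 TPM on day 14, above Gpi1 and Pgk1 and below Ldha.

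The 10 genes did not fall at one pace. In normalized counts, 3 of them fell over 2-fold from day 2 to day 5 (Eno1, Eno3 and Pkm), against 12.5% of all genes, and 1 rose (Hk2), against 19%. From day 5 to day 10, 3 fell (Slc2a1, Eno1 and Pkm), against 9.5%, and 0 rose, against 12.8%. From day 10 to day 14, 0 fell and 0 rose, against 8.33% and 4.73% of all genes. These steps depend on the scale. With TPM, Eno1, Eno3 and Pkm stayed within 2-fold from day 2 to day 5, and Hk2 and Slc2a1 rose past it. The median step of the 10 genes was then 0.36, where that of all genes was 0.86, against −0.60 and 0.12 in normalized counts. From day 5 to day 10 Slc2a1 alone fell over 2-fold with TPM, and these medians were −0.40 and 0.39. Pgk1 and Ldha had the most similar courses of all pairs of the 10, with a root mean square difference of 0.37 in log2 change over the 4 later days. Pkm lay nearest to the median course of the 10 genes (0.35) and Eno3 farthest (2.45).

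Among 8255 other genes with 100 or more counts in any library, the 5 with courses nearest to Pkm by the same measure were Twist2 (0.11), a transcription factor of mesenchyme, Lgals3 (0.15), which encodes galectin 3, Hspe1 (0.21), which encodes a mitochondrial chaperonin, Bex3 (0.24) and Ncs1 (0.25). Twist2 had 275, 123, 104, 55.9 and 45.6 expected counts in day order. The 5 nearest to Eno3 were Ccn2 (0.57), Aqp5 (0.79), Siglecg (0.83), Lox (0.83) and Prss23 (0.91). Ccn2, a secreted matrix protein gene, had 5061 expected counts at the start and between 176 and 245 later. Lox, which cross-links collagen, had 7435 and at most 730 later. These genes were picked for a course like that of Eno3, so their high day 0 follows from the choice. Aqp5 and Siglecg reached 100 counts on day 0 alone.

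Gene length moved with change in these libraries. With all measured genes divided by length into 4 groups of equal size, the group of shortest transcripts had a median change of −1.0 on day 10 and that of the longest 0.86. Of the 10 genes, Aldoa, Eno3 and Ldha were in the shortest group, Hk2, Gpi1, Pgk1, Eno1 and Pkm in the next, Slc2a1 and Pfkp in the third, and 0 in the longest. Each gene was therefore also set against the median of the 500 genes nearest to it in length. Relative to those, Eno3 lay at −3.43 in place of −4.39 on day 10, Aldoa at −1.90 in place of −2.39 and Ldha at −2.67 in place of −3.12, whereas Slc2a1 lay at −2.53 in place of −2.32. All 10 genes were still over 2-fold below on days 10 and 14, and the part of length in the remaining values was not tested.

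At several steps a second gene makes the same enzyme, and the balance between such isozymes within 1 library does not depend on how libraries are scaled against each other. Shares of TPM do depend on the gene lengths that RSEM used in each library. Lactate dehydrogenase B, the form of heart and neurons that favours the use of lactate, held a larger share of its family on every later day than on day 0. Ldhb had 283, 334, 523, 574 and 734 expected counts in day order, and its normalized count was 2.34-fold above day 0 on day 14 (1.23, 1.03 to 1.43). Ldha made up 95.5% (95.0 to 96.0), 61.3% (58.3 to 64.3), 75.1% (73.2 to 76.9), 65.3% (63.0 to 67.5) and 55.6% (53.3 to 57.9) of the summed TPM of the family in day order. The ratio of Ldha to Ldhb in TPM thus went from 21.3 on day 0 to 1.25 on day 14. By expected counts Ldha held 96.7%, 74.7%, 78.6%, 69.4% and 60.2% of the family in day order.

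In enolase, the gene of the neuronal form held its place while the others fell. Eno2, a marker of neurons that other growing cells also express, had 382, 191, 363, 319 and 429 expected counts in day order, and its normalized count was level with day 0 on day 14 (0.02, −0.18 to 0.22). Its share of the summed enolase TPM was 2.25% (2.03 to 2.49), 4.77%, 15.8%, 26.5% and 41.8% (38.8 to 44.9) in day order, while Eno1 went from 88.7% to 52.3%. With the Eno1b reads added to Eno1, the share of Eno2 was 1.32% on day 0 and 27.5% on day 14, and that of Eno1 93.4% and 68.6%. Eno2 itself passed 2-fold on no day in normalized counts, and on the TPM scale it did so on day 14 alone (1.35).

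In hexokinase, Hk1, the form attached to mitochondria in brain and most tissues, stayed within 2-fold of day 0. It had 445, 176, 532, 457 and 332 expected counts in day order. Hk2 made up 60.5% (56.0 to 64.6), 17.5% (8.70 to 29.1), 17.5% (13.9 to 21.5), 10.5% and 12.1% (8.30 to 16.9) of the summed hexokinase TPM. The shares on days 0 and 2 rest on the short lengths given to Hk2 in those libraries. By expected counts Hk2 was 27.5%, 4.35%, 10.1%, 8.74% and 7.51% of the family in day order. Hk3, the hexokinase of white blood cells, had 2 counts on day 0, 22 on day 2 and 44 on day 5. In normalized counts, 8 of 8 macrophage markers were over 2-fold above day 0 on day 2 (15.2% of all genes) and 7 of 8 on day 5 (20.2%). With TPM 4 of 8 were above on day 2 (7.9% of all genes) and 6 of 8 on day 5 (32%). The part of macrophages in the Hk3 counts was not tested.

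In phosphofructokinase, Pfkl (liver type) fell and Pfkm (muscle type) did not. Pfkl had 915, 186, 198, 172 and 172 expected counts in day order, and its normalized count was 5.86-fold below day 0 on day 14 (−2.55, −2.80 to −2.32). Pfkm had 129, 138, 266, 239 and 162 counts on the same days, and its normalized count was between 0.18 and 0.96 above day 0 on the log2 scale, past 2-fold on no day, while on the TPM scale it was 1.51 above on day 10. Pfkp took 36.5% of the summed TPM on day 0 (33.8 to 39.3), 24.8% on day 2 (20.5 to 29.6) and 42.3% on day 14 (38.0 to 46.7), and Pfkm went from 10.0% to 42.5% by day 5 and 31.9% by day 14. The share of Pfkp was thus not lower at the end, although its normalized count was.

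Among the carriers of glucose, Slc2a1 held 85.7% (82.6 to 88.5), 90.2%, 90.1%, 61.6% (54.4 to 68.4) and 65.9% (57.2 to 73.8) of the summed TPM of the glucose transporter genes Slc2a1, Slc2a3 and Slc2a4 in day order. Slc2a3 encodes the neuronal carrier GLUT3 and had 70.1 counts on day 0 and 26 on day 14, and Slc2a4 encodes the insulin-responsive GLUT4 of fat and muscle and had 16 and 23. With 3 more carriers of the list counted, Slc2a8, Slc2a10 and Slc2a12, Slc2a1 held 72.6% (68.7 to 76.2), 56.5%, 61.8%, 28.6% and 29.7% (24.3 to 35.6) in day order. Slc2a8, whose carrier GLUT8 lies mainly within the cell, went from 7.96 TPM to 24.4 on day 14, when Slc2a1 was at 17.5. In normalized counts Slc2a8 was then 0.68 above day 0 on the log2 scale (0.17 to 1.24), not past 2-fold. Its 86 expected counts on day 14 were close to the 79 of Slc2a1. The share of Slc2a1 was thus lower on days 10 and 14 than on day 0 with either set of carriers, but by how much depends on the set. Aldoa (97.6% to 99.7%) held nearly all of the aldolase TPM in every library, Pgam1 held 95.8% to 99.7% of that of phosphoglycerate mutase, and Pkm and Pgk1 were the only ones of their pairs with reads, since Pklr and Pgk2 had 0 counts in all 5 libraries.

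The pair of carriers that move lactate across the membrane changed places. Slc16a3 encodes MCT4, the lactate exporter of cells with much glycolysis, and had 515, 37, 12, 4 and 4 expected counts in day order. Its normalized count on day 14 was −6.80 against day 0 (−9.04 to −5.79). Slc16a1 encodes MCT1, which carries lactate in either direction, and had 138, 91.1, 509, 353 and 247 counts. It rose 3.24-fold by day 5 (1.70, 1.43 to 1.99) and was at 0.69 on day 14. Slc16a3 went from 86.7% of the summed TPM of the 3 transporters on day 0 (84.4 to 88.8) to 42.4% on day 2, 4.05% on day 5 and 2.31% on day 14 (0.635 to 5.78). By expected counts its share was 78.3%, 28.5%, 2.26% and 1.56% on these days.

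**Figure D3:**
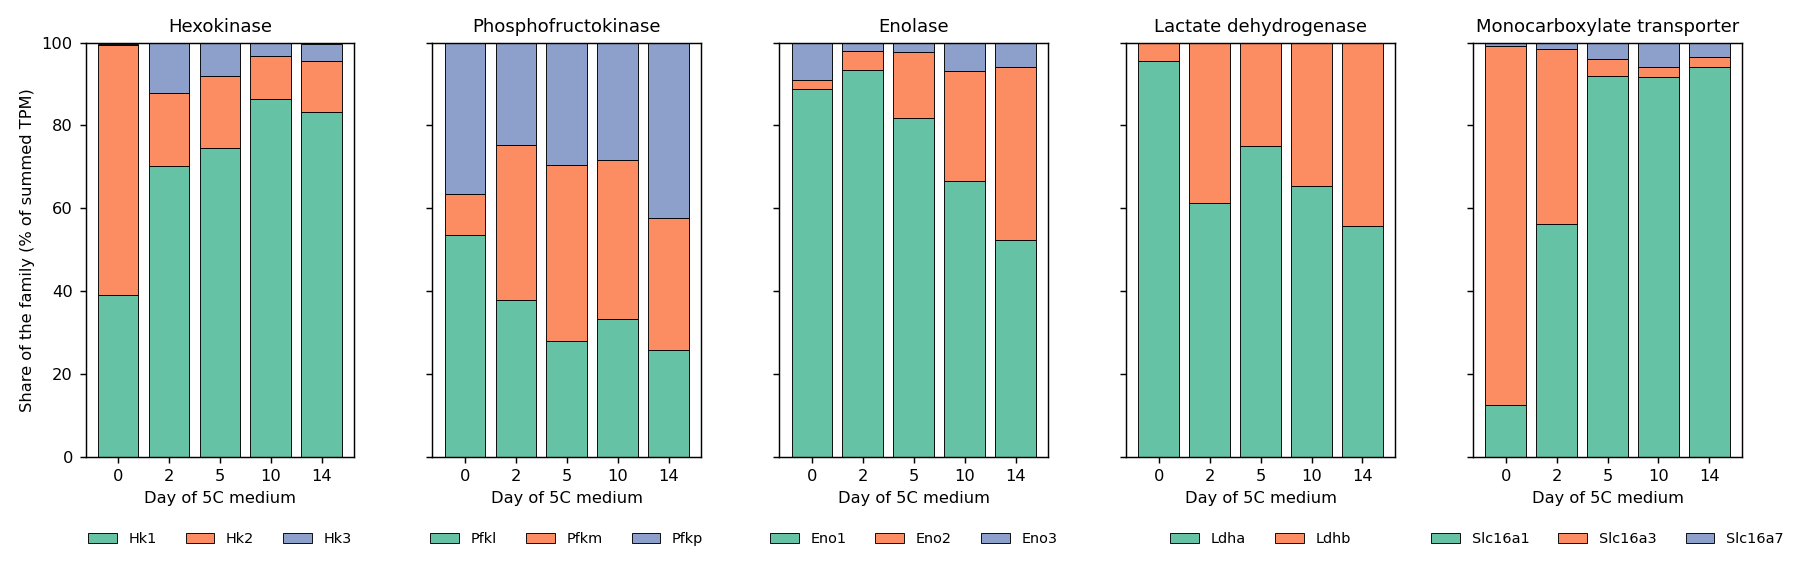
Share of each gene in the summed TPM of its family (%, vertical axis from 0 to 100) by day of 5C medium (horizontal axis) for hexokinase, phosphofructokinase, enolase, lactate dehydrogenase and the monocarboxylate transporters, 1 library per bar, with Eno1b not counted and genes under 1% in all libraries not drawn. Ldha goes from 95.5% to 55.6%, Eno1 from 88.7% to 52.3% and Slc16a3 from 86.7% to 2.31%.

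The rest of the pathway was read from lists of other glycolysis genes and of their regulators. Of 29 other glycolysis genes 21 were measured, and on day 14, 6 of these had fallen over 2-fold, against 19.9% of all genes, and 4 had risen, against 24.5%, with a median change of 0.10. With TPM 4 had fallen (6.97% of all genes) and 9 had risen (41.6%), and the median was 0.97 where that of all genes was 0.78, so the balance of this list depends on the scale. The abundant enzymes between the steps above fell with the 10 genes. Gapdh, the oxidizing step and a common reference gene, had 24466, 3930, 5073, 2567 and 3240 expected counts in day order, and was 8.36-fold below day 0 at the end (−3.06, −3.12 to −3.01). Pgam1, which moves the phosphate ahead of enolase, was 6.21-fold below day 0 on day 14.

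Of 18 measured regulators, 12 had risen and 4 had fallen on day 10, against 28.7% and 22.3% of all genes, and 9 had risen and 5 had fallen on day 14, against 24.5% and 19.9%, with medians of 1.39 and 0.90. With TPM 13 and 10 had risen on these days, against 52.9% and 41.6% of all genes, and 1 had fallen on each, against 6.77% and 6.97%. Pfkfb4, which sets the level of the activator of phosphofructokinase, had 39, 16, 53, 206 and 563 expected counts in day order, a rise of 12.7-fold (3.67, 3.24 to 4.21). Txnip, which lowers glucose uptake by taking GLUT1 off the membrane, had 117, 75, 403, 704 and 837 counts and was 6.41-fold above day 0 on day 14 (2.68, 2.41 to 2.98). Pdp1, the phosphatase that switches pyruvate dehydrogenase on, was 9.50-fold above day 0 on day 14, and Epas1, which encodes the hypoxia factor HIF-2 alpha, 4.76-fold above. In the other direction, Pfkfb3, which makes the same activator as Pfkfb4, had 144, 35.9, 44.2, 69.0 and 30.8 expected counts in day order and was 5.03-fold below day 0 on day 14 (−2.33, and −1.26 with TPM). Myc was at −1.56 on day 14 and at −0.68 with TPM.

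The median of the genes for pyruvate entry to mitochondria moved less. Of 8 genes of the pyruvate carrier, pyruvate dehydrogenase and pyruvate carboxylase, 1 had fallen and 1 had risen over 2-fold on day 14, against 19.9% and 24.5% of all genes. Pcx, the pyruvate carboxylase gene, had risen 6.49-fold (2.70, 2.32 to 3.15, and 3.34 with TPM). Mpc2, of the pyruvate carrier, had fallen (−1.05, and −0.74 with TPM). Pdha1, a subunit of pyruvate dehydrogenase, went from 746 to 497 expected counts by day 14, a log2 change of −0.73 in normalized counts and 0.15 in TPM. With TPM 2 of the 8 genes had risen (41.6% of all genes) and 0 had fallen (6.97%), so the direction of this list depends on the scale. Within a library, the ratio of Ldha to Pdha1 in TPM was 19.8 (18.3 to 21.3), 8.52 (7.33 to 9.94), 7.14 (6.45 to 7.91), 3.34 (3.04 to 3.67) and 4.02 (3.61 to 4.47) in day order.

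**Figure D4:**
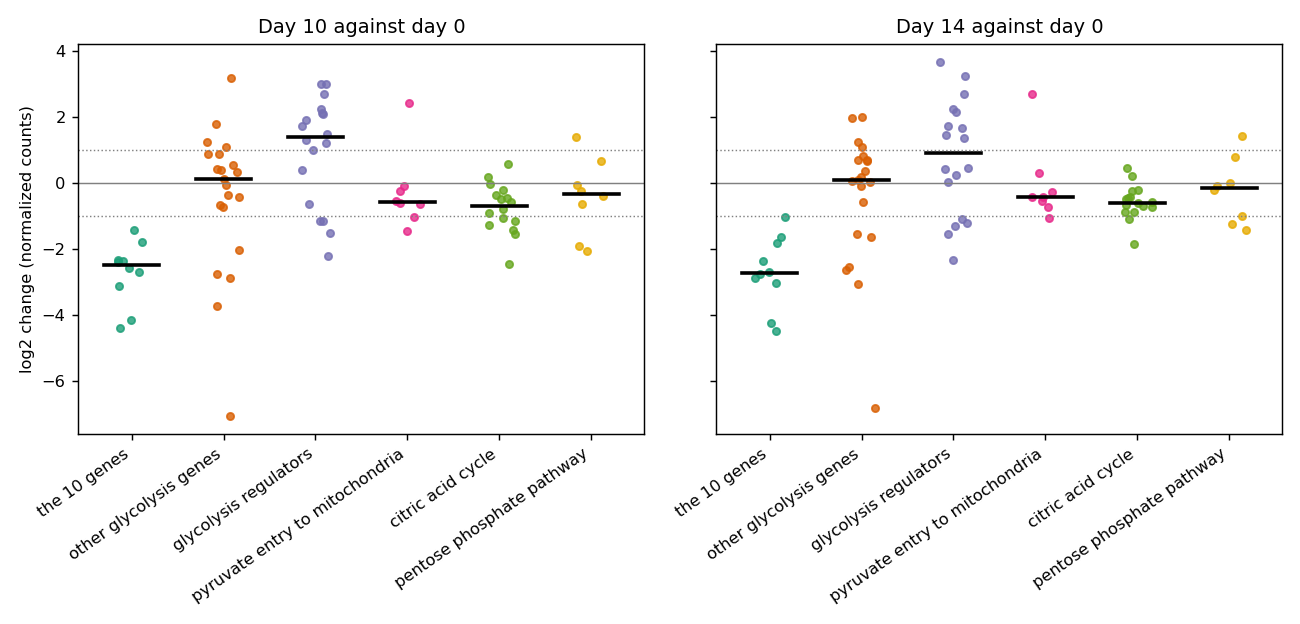
Change against day 0 (log2 of normalized counts, vertical axis) on day 10 (left) and day 14 (right) for the 10 genes and 5 other lists (horizontal axis). Each point is a gene with 10 or more counts in any library, black bars are medians and dotted lines mark 2-fold. The 10 genes have medians of −2.48 and −2.73, the other glycolysis genes 0.11 and 0.10, the regulators 1.39 and 0.90 and the citric acid cycle genes −0.69 and −0.60.

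Because the 10 genes went down together, their promoters were searched for short motifs of known regulators. ACGTG and GCGTG are core letters of sites bound by hypoxia-inducible factors, and CACGTG is the site of Myc and of related factors that respond to glucose. It contains ACGTG on both strands. The search covered the 250 bases before each start site on both strands, from RefSeq (GRCm38.p6), in which all 10 genes were found with 16 start sites. ACGTG was present in 7 of the 16 promoters (6 genes), against 16.6% of all 32851 promoters and 21.1% of those of measured genes. GCGTG was present in 7 of 16 (5 genes), against 28.2% and 43.9%, and CACGTG in 1 of 16, against 6.02% and 8.25%. Either of the first pair occurred in 13 of 16 promoters, against 38.6% and 54.8%. A pair of Eno1 windows and a pair of Aldoa windows overlap by 223 and 174 bases and hold some of the same matches, and with each pair counted once 11 of 14 windows held either motif. By gene, 9 of the 10 had either motif before some start site, Gpi1 being the one without, against 61.0% of the 10257 measured genes with a promoter in the table. The 10 genes had 1.60 start sites each, against 1.28 for those genes. The upstream windows of Pgk1 and Ldha, whose courses were most alike, are given with those of Hk2, the lowest gene on day 2 in TPM, and of Eno3, whose course was the farthest from the others. Capitals mark ACGTG and GCGTG and their reverse complements, and each sequence runs 5′ to 3′ on the strand of the gene and ends just before the start site.
Pgk1 (chrX:106186850-106187099, plus strand): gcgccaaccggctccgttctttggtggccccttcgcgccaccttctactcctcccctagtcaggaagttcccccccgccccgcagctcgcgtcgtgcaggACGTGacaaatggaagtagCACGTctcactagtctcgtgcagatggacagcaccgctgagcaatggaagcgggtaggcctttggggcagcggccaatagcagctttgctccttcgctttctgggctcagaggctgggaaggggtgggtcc
Ldha (chr7:46845554-46845803, plus strand): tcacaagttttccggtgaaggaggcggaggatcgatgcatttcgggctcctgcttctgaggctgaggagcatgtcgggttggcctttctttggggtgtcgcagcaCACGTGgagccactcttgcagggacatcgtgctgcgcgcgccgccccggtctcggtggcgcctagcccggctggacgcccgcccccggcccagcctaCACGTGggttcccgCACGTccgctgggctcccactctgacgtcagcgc
Hk2 (chr6:82774455-82774704, minus strand): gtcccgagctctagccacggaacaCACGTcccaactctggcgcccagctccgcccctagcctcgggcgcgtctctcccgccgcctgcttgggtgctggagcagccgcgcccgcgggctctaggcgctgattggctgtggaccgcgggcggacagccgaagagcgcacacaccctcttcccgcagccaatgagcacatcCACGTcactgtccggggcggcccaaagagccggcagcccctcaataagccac
Eno3 (chr11:70656926-70657175, plus strand): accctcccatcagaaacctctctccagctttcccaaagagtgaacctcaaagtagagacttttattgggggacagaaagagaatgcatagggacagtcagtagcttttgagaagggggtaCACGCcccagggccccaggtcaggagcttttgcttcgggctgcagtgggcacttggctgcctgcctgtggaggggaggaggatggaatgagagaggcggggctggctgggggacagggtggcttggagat
Pgk1 held 2 ACGTG matches, Hk2 2, and this window of Ldha 5, among them 2 CACGTG sites read on both strands. The other Ldha window (chr7:46846832-46847081), not printed, held 0 ACGTG matches and 1 GCGTG match. Some of the 16 windows overlap exons, among them a pair of Eno1 (245 and 250 of 250 bases), one of Pkm (208) and that of Gpi1 (167). The printed windows overlap no exon. Eno3 held 1 GCGTG match. A match is a description of these letters and was not tested as a site of binding. In day order Hif1a, a hypoxia-inducible factor gene, had 296, 188, 523, 826 and 439 expected counts, and Myc 507, 43, 111, 151 and 190.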

How the data were processed

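RNA was extracted with Trizol and libraries were made with the Illumina TruSeq RNA kit, which does not mark strand. Per the submitters' processing notes, Bowtie, RSEM and the build mm10 were used. The sources used here give no versions, no annotation and no filter. The authors deposited expected counts per gene (RSEM's estimates, not scaled for depth), with TPM values, FPKM values (not used here) and gene lengths, of which the effective length equals the length. Expected counts were rounded for library sizes and intervals. TMM factors came from edgeR 4.0.16 in R 4.3.3, over all 5 libraries. Normalized counts are expected counts divided by effective library size and scaled to its geometric mean. A pseudocount of 1 was added before log2 ratios against day 0 were taken, and 2-fold was the threshold. Genes needed 10 counts in any library (13346 of 27729). A floor of 3 counts corresponded to 0.771 to 1.33 counts per 1000000. Intervals are 95% Clopper-Pearson intervals of the counts of the libraries compared, without a pseudocount. With 1 library per day no test was made. Isozyme shares are shares of summed TPM, with count intervals carried to that scale.

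Symbols and coordinates came from GENCODE M21 (GRCm38, the same build as mm10) and its table of names. Genes named are all 10 of the list, their isozymes, at most 4 genes per other list with the largest change on day 10 or 14 among those with 100 or more counts, and the 5 nearest in course to the most and the least typical of the 10. Hif1a, Myc, Col1a1, Gm42418 Map2, Stmn2, Pfkfb3, Slc2a8 and the muscle markers other than Acta1 and Des were named beyond this rule after their values were seen. The genes and lists were chosen with earlier results of these data known. Alternatives were DESeq2 1.42.0 size factors, total counts, TPM, genes of like length, a pseudocount of 5, other count filters, a 4-fold threshold, shares by counts and Eno1b added to Eno1. The median without Eno3, a normalization without the day 2 library and the wider set of glucose carriers were chosen after seeing the data. The calculation was first tested on simulated data. Tables, intervals and plots were made in Python 3.11.15 (scipy 1.17.1, pandas 2.3.3, matplotlib 3.10.9).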

Additional observations from a re-analysis of the deposited data

How the results depend on the processing

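With 1 library per day, counting intervals do not cover differences between cultures, and where a setting moved a value the cause was not tested. No paired analysis was possible because each day had 1 library and no replicate numbers. On days 10 and 14 all 10 genes were over 2-fold below day 0 and 0 above with DESeq2 size factors, genes of like length, a pseudocount of 5, either count filter and normalization without day 2, while 9 were below on each with total counts, and 8 and 7 with TPM. With a 4-fold threshold these numbers were 8 and 7. The median change of the 10 genes went to −1.53, −1.16, −1.47 and −1.94 at the 4 later time points with TPM. With total counts as library sizes it went to −1.18, −2.01 and −2.38 on days 5, 10 and 14. Over the genes with 100 or more counts in every library it was −0.81, −1.88 and −2.63 on days 2, 5 and 10, and without Eno3 −0.83 on day 2. Of the 40 changes of single genes, 33 were past 2-fold below day 0, against 28 with TPM, 31 with total counts and 33 with the other scalings, and none that was past 2-fold changed sign. Slc2a1 held 72.6% of the carriers on day 0 and 29.7% on day 14 with Slc2a8, Slc2a10 and Slc2a12 counted, against 85.7% and 65.9%. By expected counts in place of TPM, Slc2a1 held 81.2% of its family on day 0, Hk2 27.5% on day 0 and 7.51% on day 14, Pfkp 26.3% and 37.9%, Eno1 89.5% on day 0, and Ldha 96.7% and 60.2%. With Eno1b added, Eno1 held 93.4% on day 0 and 68.6% on day 14. Low counts limit Hk2 and Eno3 most, and reads shared with other processed copies, of which Gapdh has many, were not examined.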

Other observations

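Branches and followers of glycolysis had smaller median changes than the 10 genes, and their directions depend on the scale. Over all genes, 22.3% had fallen over 2-fold and 28.7% had risen on day 10 in normalized counts, and 19.9% and 24.5% on day 14. With TPM 6.77% had fallen and 52.9% had risen on day 10, and 6.97% and 41.6% on day 14. Of 16 citric acid cycle genes, 6 had fallen in normalized counts on day 10 and 2 on day 14, and 0 had risen. With TPM 2 had fallen and 2 had risen on day 10, and 0 had fallen and 1 had risen on day 14, and the day 14 median was 0.29 in place of −0.60. Mdh2, mitochondrial malate dehydrogenase, had the largest change at −2.45 on day 10 and −1.84 on day 14 (−1.28 and −0.96 with TPM). Of 8 genes of the pentose phosphate pathway, which makes NADPH and ribose, 3 had risen in normalized counts on day 2 (15.2% of all genes) and 0 had fallen (13.1%), and on day 14, 1 had risen and 2 had fallen, with a median of −0.16. With TPM 0 passed 2-fold on day 2, and on day 14, 2 had risen and 0 had fallen, with a median of 0.67. In order of days 0, 2 and 14, Pgls had 751, 953 and 308 expected counts, and H6pd 188, 216 and 555. The 5 genes of the serine branch were below day 0 on days 5, 10 and 14 in normalized counts. So were 6373, 6167 and 6284 of all 13346 genes. On day 14, 2 of the 5 were past 2-fold, among them Phgdh, the first enzyme of the branch. Phgdh went from 1523 to 468 expected counts (−1.85, and −0.91 with TPM). With TPM 2, 2 and 3 of the 5 were below day 0 on days 5, 10 and 14 and 0 past 2-fold, with medians of 0.27, 0.07 and −0.01. Of all genes, 3072, 2783 and 3295 were below day 0 with TPM. Of 10 measured genes of glycogen metabolism 1 had risen and 1 (Gys1, glycogen synthase, at −1.58) had fallen on day 14, and with TPM 1 and 0. Of 2 measured genes of gluconeogenesis, G6pc3 and Pck2, 0 passed 2-fold on days 10 and 14 in normalized counts, while with TPM 1 and 2 had risen.

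Hypoxia targets outside glycolysis lay on both sides of day 0 at the end. Of 15 genes, 6 had fallen and 0 had risen in normalized counts on day 2, against 13.1% and 15.2% of all genes, and 5 had fallen and 4 had risen on day 14, against 19.9% and 24.5%. With TPM 8 had fallen and 0 had risen on day 2, against 14% and 7.9%, and 4 had fallen and 6 had risen on day 14, against 6.97% and 41.6%. Higd1a, a mitochondrial protein gene, went from 508 to 92 expected counts by day 14, and P4ha1, a collagen prolyl hydroxylase, from 1126 to 298. Ndrg1 had 218, 58, 210, 821 and 813 counts in day order, and was 1.75 above day 0 on the log2 scale at the end.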
